A study of Sus scrofa with 22 samples.

Results

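The genes described here build the class I antigen presentation system of the pig: the class I heavy chains of the swine leukocyte antigen (SLA) complex, their light chain B2M, the peptide transporter TAP1 and TAP2, and the immunoproteasome subunits PSMB8 and PSMB9. They were chosen as every array gene whose accession carries a RefSeq pig symbol made of SLA- and a digit, or 1 of the 5 other names. That rule covers 14 symbols in RefSeq, and 10 of them were on the array, through 26 probes: B2M, SLA-3, SLA-5, SLA-6, SLA-7, SLA-8, TAP1, TAP2, PSMB8 and PSMB9. SLA-1, SLA-2, SLA-4 and SLA-11 were not analysed here. All 10 genes were well above background in the piglet's channel on 22 of 22 arrays and were among the 24766 genes or identifiers tested, of 35866 on the array, so the filter on dim signals removed no gene of the rule. Each gene is represented by its brightest probe.

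The RNA came from the small intestine of 22 crossbred specific-pathogen-free piglets (Large White crossed with Danish Landrace), given as 3 days old without saying whether at treatment or at sampling, from 2 separate experiments. In the DOX experiment 6 piglets received a single intravenous dose of doxorubicin, an inhibitor of topoisomerase II, and 6 were untreated. In the BUCY experiment 5 piglets received busulfan with cyclophosphamide, alkylating agents used before bone marrow transplantation, and 5 were untreated. All had suckled from birth and were then kept in single cages. The labels do not state the gut segment, the doses, what the controls were given, the sampling time or the litters. Each array set a piglet's RNA (Cy5) against a pool of all samples (Cy3), and every value is the log2 ratio of the piglet to that pool, so that 0 is the level of the pool and a step of 1 is a 2-fold change. In these whole-tissue samples fewer cells of a type and less RNA per cell cannot be told apart.

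Class I molecules show fragments of a cell's own proteins to CD8 T cells and NK cells. Peptides are cut by the proteasome, in which interferon and immune cells bring in the alternative catalytic subunits PSMB8 and PSMB9, and the TAP1 and TAP2 pair pumps them into the endoplasmic reticulum. There the heavy chain folds with B2M, is loaded with the help of chaperones, and travels to the surface. SLA-3 is among the classical heavy chains of the pig, SLA-5 is encoded beside them, and SLA-6, SLA-7 and SLA-8 are non-classical. In RefSeq's pig annotation TAP2, PSMB8, TAP1 and PSMB9 lie next to each other in that order, within the MHC. Most nucleated cells carry class I molecules, the intestinal epithelium included, and type I and type II interferon raise most of these genes.

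The share of an array's probes that was well above background lay between 59.6% and 72.5%, the lowest being that of BUCY treated piglet 3, and the number of piglets limits the precision. All 10 enterocyte markers and all 5 general epithelial markers tested were well above background on 22 of 22 arrays. So were 17876 of the 24766 genes tested, and the presence of these markers therefore cannot tell this tissue from another. BUCY treated piglets 2 and 3 stood apart from the other 20 on the second principal component of all genes, at 55.3 and 67.5 where the next piglet was at 28.5. Their mean log2 ratios over the 10 enterocyte markers were -1.50 and -2.32, while the other 3 BUCY treated piglets were at 0.81, 0.69 and 0.07 and the 5 untreated ones between 0.05 and 0.79.

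The first comparison asks what busulfan with cyclophosphamide changed in the intestine. B2M, SLA-5 and SLA-3 were lower in the BUCY treated piglets than in the untreated piglets of that experiment, by 2.93-fold, 2.21-fold and 1.81-fold. These were 3 of the 10 genes and no gene of the 10 was called higher. Called means that limma's p, adjusted over all genes tested, was under 0.05. By the same test 17.3% of all genes tested were called in either direction and 9.04% were called lower. The median difference over the 10 genes was -0.13, beside -0.001 over all genes tested.

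B2M, the light chain without which the classical heavy chains do not reach the surface, had log2 ratios of -1.51, -2.48, -2.91, -1.75 and -1.63 in the BUCY treated piglets. In the untreated piglets of that experiment they were -0.60, 0.02, -0.20, -0.79 and -0.96. The groups did not overlap: every treated piglet lay below the lowest untreated one, and treated piglets 2 and 3 lay furthest down. The difference was -1.55 (SE 0.237, adjusted p = 0.000255), from means of -2.06 ± 0.61 (SD, n = 5) and -0.50 ± 0.41 (SD, n = 5). An exact two-sided permutation test of the piglets gave p = 0.00794, the smallest that the 252 splits allow. The value table deposited by the authors gave a smaller difference by limma, -1.09 (adjusted p = 0.00177). Without treated piglets 2 and 3 the difference of B2M was -1.12 and still called (adjusted p = 0.00293). Within the 3 slides that held both groups, each with 1 or 2 treated and 1 untreated piglet, it ran from -1.55 to -0.67, and within the 3 scan days from -1.73 to -0.67.

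SLA-5 had log2 ratios of -1.27, -2.57, -2.14, -0.99 and -1.0 after BUCY and of -0.28, -0.49, -0.92, -0.26 and -0.29 without it. Again no treated piglet reached the untreated range, but the gap between the highest treated value and the lowest untreated one was small, and treated piglets 2 and 3 were the lowest. Its difference was -1.14 (SE 0.302, adjusted p = 0.0135), and the exact permutation p was 0.00794.

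The classical heavy chain SLA-3 had log2 ratios of -0.81, -1.43, -1.34, -0.39 and -0.76 after BUCY. The untreated piglets lay close together, at -0.11, -0.14, -0.17, 0.11 and -0.13, all above the treated ones. The difference was -0.86 (SE 0.252, adjusted p = 0.0239; exact permutation p = 0.00794). Both heavy chains lost their call without treated piglets 2 and 3, SLA-5 at -0.64 (adjusted p = 0.232) and SLA-3 at -0.56 (adjusted p = 0.296). Left out singly, piglet 2 ended both calls (SLA-5 -0.90, adjusted p = 0.0514; SLA-3 -0.73, adjusted p = 0.082) and piglet 3 ended that of SLA-3 (-0.76, adjusted p = 0.0727). The calls also depended on the processing. SLA-3 lost its call with the Cy5 signal alone (-0.72, adjusted p = 0.126), array weights (-0.73, adjusted p = 0.0949) and Agilent's log ratios (-0.76, adjusted p = 0.0506). SLA-5 lost its call in a model of only the 2 groups compared (-1.14, adjusted p = 0.063). Within slides the differences ran from -1.30 to -0.35 for SLA-5 and from -0.98 to -0.63 for SLA-3, and within scan days from -1.35 to -0.71 and from -0.98 to -0.63.

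The non-classical heavy chains did not pass the test after BUCY. SLA-8 was at -0.55 ± 0.25 in treated and -0.43 ± 0.25 in untreated piglets (SD, n = 5 each), a difference of -0.12 with a 95% interval from -0.42 to 0.18. For SLA-6 the means were -0.71 ± 0.27 and -0.57 ± 0.21 and the interval of the difference ran from -0.47 to 0.19. SLA-7 differed by 0.14, with an interval from -0.05 to 0.33. In all 3 genes the treated and untreated piglets overlapped. The interval of SLA-8, whose probe had a mean log2 intensity of 11.72, leaves out a fall as large as that measured for B2M. The probes of SLA-6 and SLA-7 were dim, at 8.23 and 6.82, beside 16.78 for B2M. An offset was added to every signal, which shrinks the ratios of dim probes. The intervals of SLA-6 and SLA-7 therefore cannot decide whether their RNA fell as much.

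TAP1, the transporter chain on which peptide supply depends, had log2 ratios of -1.50, -2.27, -2.24, -2.19 and -1.45 in BUCY treated piglets and of -1.54, -1.40, -1.82, -1.38 and -0.88 in untreated ones. Treated piglets 2, 3 and 4 lay below the whole untreated range and piglets 1 and 5 within it. The difference of -0.53 (SE 0.195) missed the threshold, with an adjusted p of 0.0659 and an exact permutation p of 0.0714. It passed with the value table deposited by the authors (-0.62, adjusted p = 0.0495) and with each array centred on its median in place of loess (-0.93, adjusted p = 0.0392). TAP2, its partner, differed by 0.04, with an interval from -0.21 to 0.29.

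Neither immunoproteasome subunit followed B2M after BUCY. PSMB9 was at -0.55, -1.06, -1.23, -1.37 and -0.95 in treated and at -0.95, -1.16, -1.95, -1.46 and -1.12 in untreated piglets, which overlapped widely. Its difference was 0.30 (SE 0.167, adjusted p = 0.227). PSMB8 differed by -0.12 (SE 0.261), with an interval from -0.67 to 0.42.

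**Figure D1:**
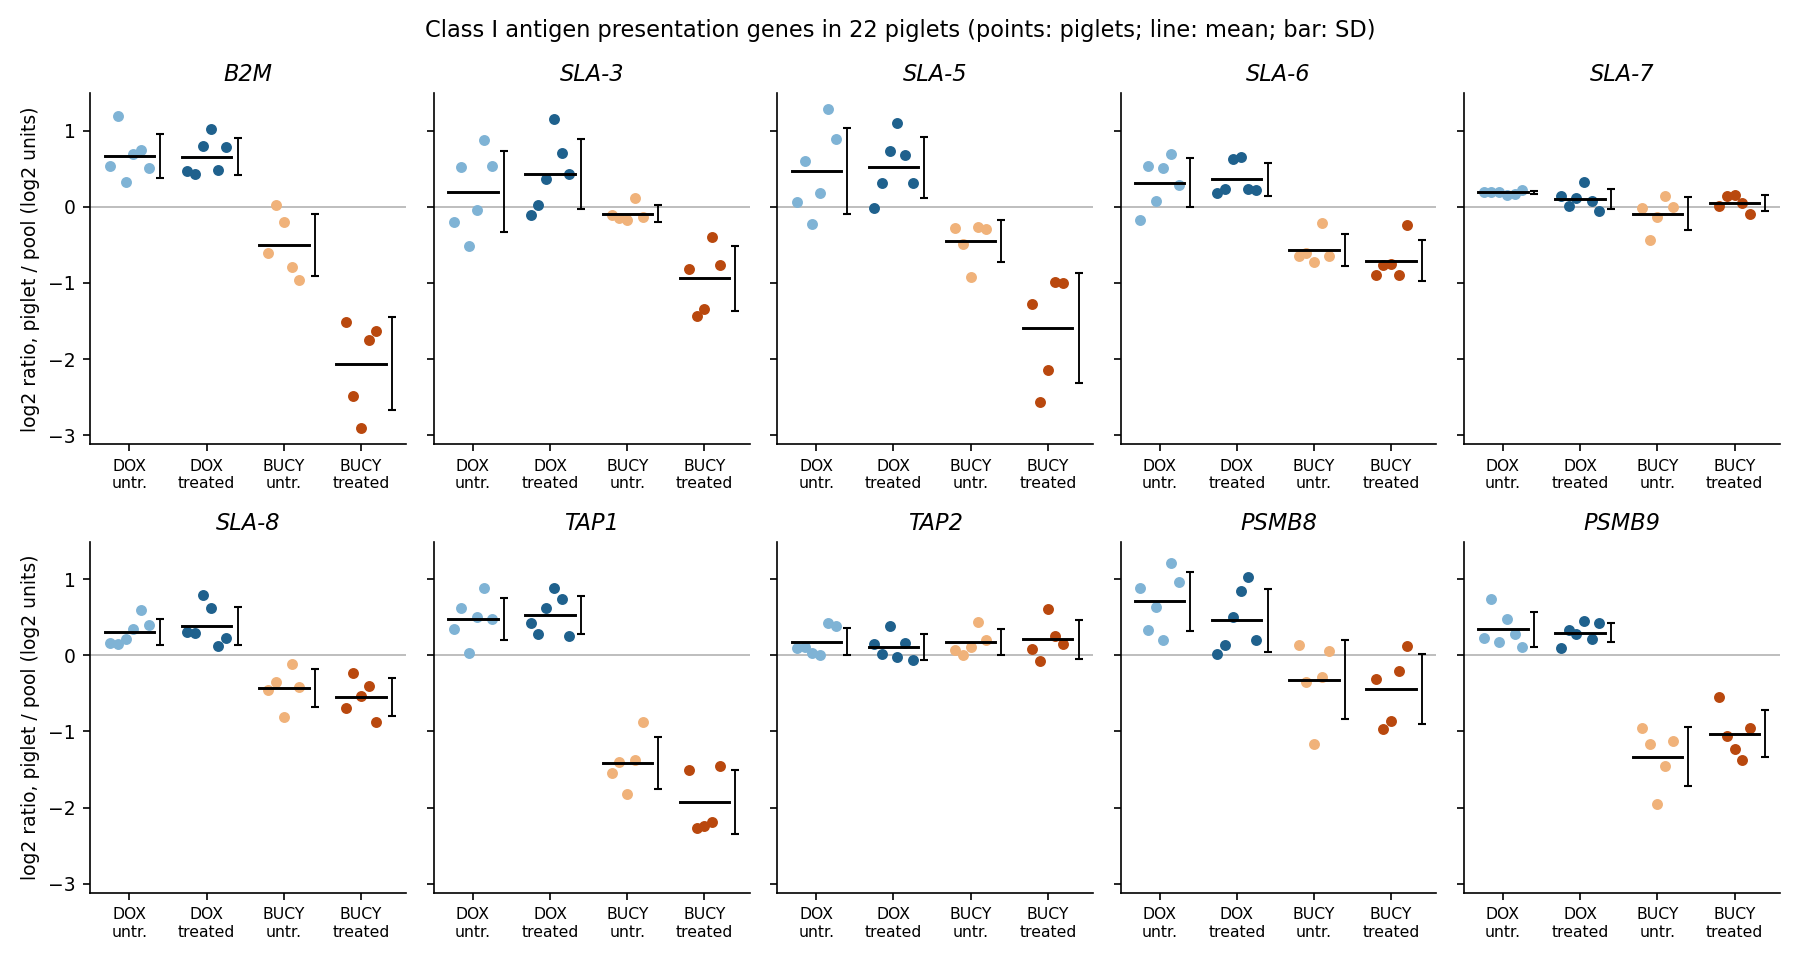
Log2 ratio of piglet to pool (y axis, log2 units) for each of the 10 genes, by group on the x axis (untr., untreated); points are piglets, the thick line is the group mean and the bar its SD, with 6 piglets in each DOX group and 5 in each BUCY group. B2M, SLA-3 and SLA-5 of the BUCY treated piglets lie below all untreated piglets of that experiment, and TAP1 and PSMB9 of both BUCY groups lie below 0 while both DOX groups lie above it.

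After doxorubicin 0 of the 10 genes passed limma's test, where 0.848% of all genes tested did. At an unadjusted p under 0.05 the count was also 0 of the 10, beside 3421 of the 24766 genes tested. The differences lay between -0.25 for PSMB8 and 0.23 for SLA-3, with 5 genes on either side of 0 and a median of 0.01, beside 0.0077 over all genes tested.

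For B2M the treated piglets ran from 0.43 over a median of 0.63 to 1.02, and the untreated ones from 0.33 over 0.62 to 1.19. The groups covered nearly the same range, and the difference of -0.01 had a 95% interval from -0.46 to 0.44. TAP1 ran from 0.26 over 0.52 to 0.88 in treated and from 0.03 over 0.50 to 0.88 in untreated piglets, with an interval from -0.31 to 0.43. PSMB8, the gene with the lowest difference, ran from 0.02 over 0.35 to 1.03 and from 0.20 over 0.76 to 1.22, and its interval from -0.75 to 0.24 leaves room for a fall of over 1.5-fold. The heavy chains SLA-3 and SLA-5 had intervals from -0.25 to 0.71 and from -0.52 to 0.63. Treated and untreated piglets overlapped in all 10 genes.

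Whether the drugs differed in their effect was tested as the BUCY effect minus the DOX effect, a comparison that uses all 4 groups. Of the 10 genes, B2M alone passed, at -1.55 (SE 0.321, adjusted p = 0.0068), where 5.89% of all genes tested did. SLA-5 had a difference of effects of -1.20 (SE 0.409, adjusted p = 0.0888) and SLA-3 of -1.09 (SE 0.341, adjusted p = 0.0635). The other 7 lay between -0.58 for TAP1 and 0.33 for PSMB9. With the value table deposited by the authors in place of the scanner signals B2M missed the threshold (-0.94, adjusted p = 0.0584), as it did with median centring (-2.10, adjusted p = 0.126).

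**Figure D2:**
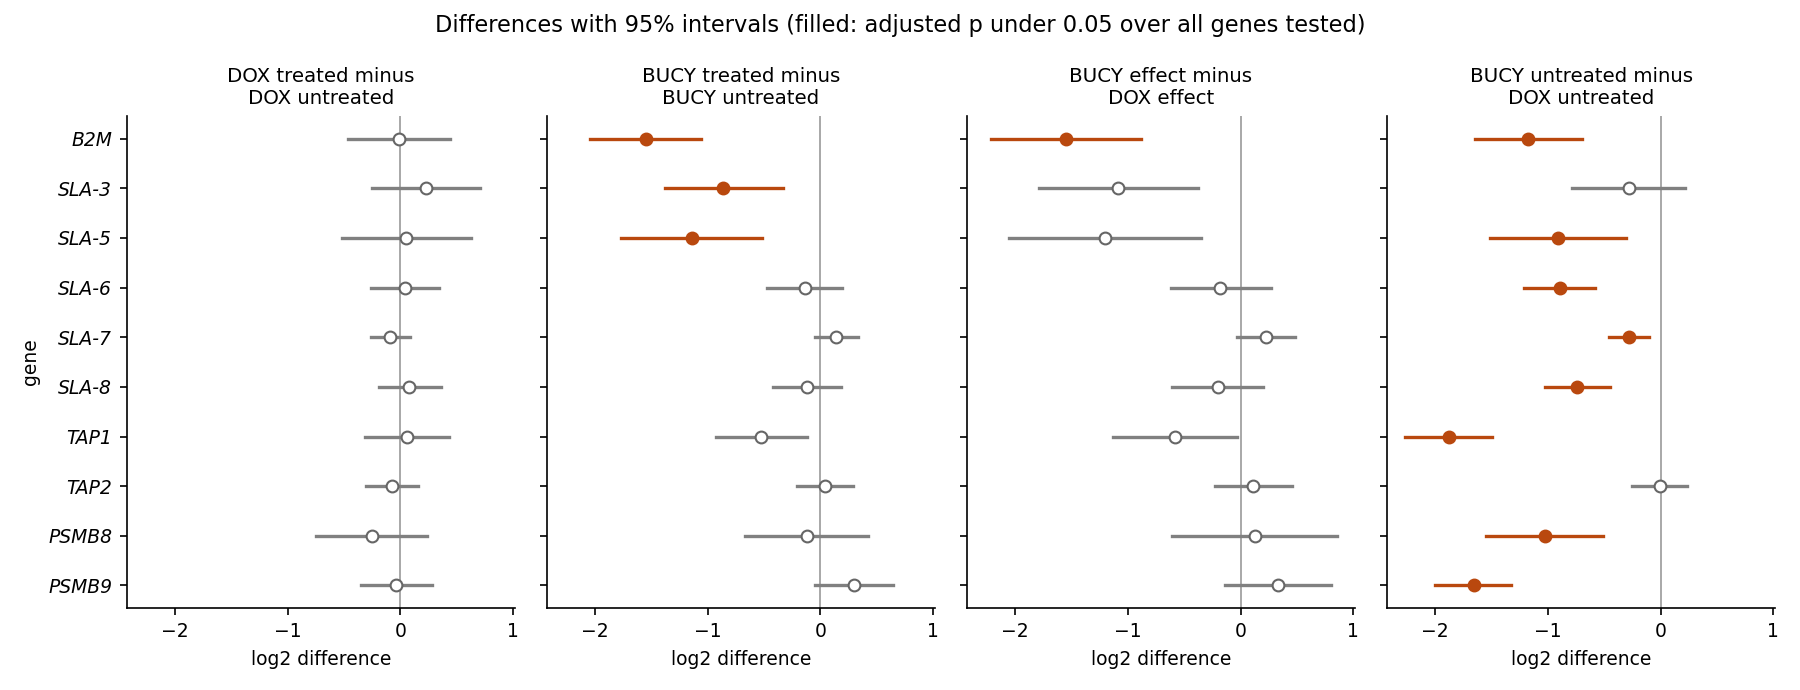
Log2 differences (x axes) of the 10 genes (y axis) in the 4 comparisons, with bars for the 95% interval; filled points passed limma's test after adjustment over all genes tested. The 3 filled points of the BUCY effect are B2M, SLA-3 and SLA-5, no point of the DOX effect is filled, and 8 are filled between the untreated piglets.

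The untreated piglets of the experiments differed from each other in most of these genes. Of the 10 genes 8 were called between them, all lower in the BUCY experiment, while 25.2% of all genes tested were called in either direction and 12.2% were called lower. The median difference was -0.90, beside 0.0289 over all genes tested. Experiment and any other difference between these piglets, such as litter or time, cannot be told apart. This comparison and the BUCY effect share the BUCY untreated piglets, so the values of each are given side by side and not related.

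TAP1 differed most, by -1.88 (3.69-fold, SE 0.186, adjusted p = 3.26e-07): its log2 ratios in the BUCY untreated piglets, listed above, lay between -1.82 and -0.88, and in the DOX untreated ones between 0.03 and 0.88 with a median of 0.50. PSMB9 differed by -1.66 (3.17-fold, SE 0.160, adjusted p = 2.34e-07), with BUCY untreated piglets between -1.95 and -0.95 and DOX untreated ones between 0.11 and 0.74. The groups did not overlap in either gene, and the exact permutation p was 0.00216 for both, the smallest that 462 splits allow.

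PSMB8 of the BUCY untreated piglets had log2 ratios of 0.14, -0.35, -1.17, -0.29 and 0.06, against 0.20 to 1.22 with a median of 0.76 in the DOX untreated ones. The groups stood apart by a narrow gap, and the difference was -1.03 (2.04-fold, SE 0.250, adjusted p = 0.00412). B2M was lower by 2.26-fold (-1.18, SE 0.227, adjusted p = 0.000568), again with no overlap, the DOX untreated piglets lying between 0.33 and 1.19.

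Among the heavy chains SLA-5, SLA-6, SLA-8 and SLA-7 were lower in the BUCY untreated piglets. SLA-6 differed by -0.89 (SE 0.152, adjusted p = 0.000164), with values of -0.65, -0.61, -0.73, -0.21 and -0.65 against a range from -0.17 to 0.69. SLA-8 differed by -0.74 (SE 0.138, adjusted p = 0.000398) and SLA-5 by -0.91 (SE 0.289, adjusted p = 0.0238). The difference of SLA-7, measured by a dim probe (mean log2 intensity 6.82), was small, -0.28 (SE 0.0866, adjusted p = 0.0208). The DOX untreated piglets lay within a span of 0.06 for SLA-7. SLA-3 (-0.28, adjusted p = 0.442) and TAP2 (-0.01, adjusted p = 0.960) did not pass.

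On the 2 slides that held untreated piglets of both experiments the difference was -1.56 and -1.50 for TAP1 and -1.32 and -1.23 for PSMB9. The other called genes had within-slide values from -1.59 to -0.63 for B2M, -1.03 to -0.75 for PSMB8, -1.38 to -0.16 for SLA-5, -1.14 to -0.71 for SLA-6, -0.91 to -0.62 for SLA-8 and -0.42 to -0.20 for SLA-7. Within the 2 scan days with both groups the 8 genes were lower as well, TAP1 by -1.92 and -1.50. The calls of SLA-5 and SLA-7 depended on single piglets and on the processing. SLA-5 lost its call without BUCY untreated piglet 3 (adjusted p = 0.0687) and without DOX untreated piglets 5 (0.0631) or 6 (0.0524), and SLA-7 without BUCY untreated piglet 2 (adjusted p = 0.0753). Both also lost it with median centring (SLA-5 -1.19, adjusted p = 0.0527; SLA-7 -0.26, adjusted p = 0.0879) and with the Cy5 signal alone (SLA-5 -0.76, adjusted p = 0.0888; SLA-7 -0.31, adjusted p = 0.0597). With slide as a fixed block in limma's model SLA-7 lost its call too (-0.27, adjusted p = 0.0821).

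Across the 4 groups B2M was highest in the DOX experiment, at 0.67 ± 0.29 in untreated and 0.66 ± 0.24 in treated piglets (SD, n = 6 each), which did not differ beyond their spread. It was lower in BUCY untreated and lowest in BUCY treated piglets. TAP1 and PSMB9 were low in both BUCY groups, TAP1 at -1.41 ± 0.34 and -1.93 ± 0.42 and PSMB9 at -1.33 ± 0.39 and -1.03 ± 0.31 (SD, n = 5 each), with no called difference between these neighbours. TAP2 lay between 0.11 and 0.21 in all 4 groups by its brightest probe.

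Several genes were measured by more than 1 probe, and the probes did not always give the same picture. All 7 SLA-3 probes were lower after BUCY, from -1.05 to -0.50. Between the untreated piglets they ran from -1.79 to -0.28, the brightest probe giving the smallest difference. Over 22 arrays the correlation between pairs of SLA-3 probes ran from 0.62 to 0.97. The pair for TAP2 correlated at only 0.12: the brighter probe differed by -0.01 between the untreated piglets and the other by -0.98 (SE 0.186). For TAP1 the second probe differed by -1.11 between the untreated piglets and by -0.01 after BUCY, against -1.88 and -0.53 for the brighter one.

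After BUCY the probes of the other genes were more even. The B2M probes differed by -1.55 and -1.43, those of SLA-5 by -1.14 and -1.0, and the 4 of SLA-8 from -0.44 to -0.12. Between the untreated piglets the second SLA-5 probe differed by -0.59, against -0.91 for the brighter one, and was not called (adjusted p = 0.315). The SLA-5 pair correlated at 0.81. With the second-brightest probe in place of the brightest, B2M was the sole gene called after BUCY, SLA-5 (adjusted p = 0.102) and SLA-3 (adjusted p = 0.179) missing the threshold. That choice was made after the data were seen. The PSMB8 probes correlated at 0.99 or above and the PSMB9 pair at 1.0. SLA genes are close in sequence, so a probe of a heavy chain can pick up its relatives, and heavy chains without a probe of their own may add to these signals.

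**Figure D3:**
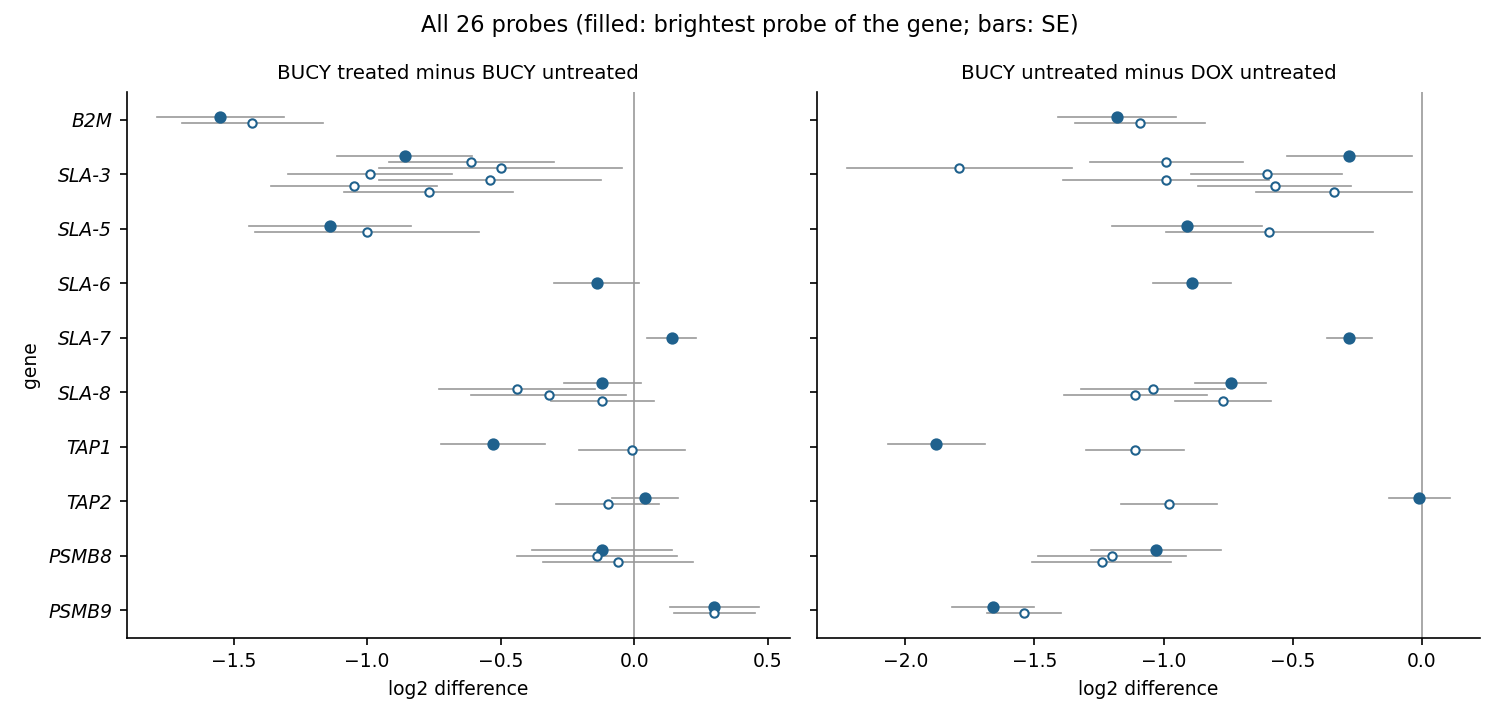
Log2 difference (x axes) of each of the 26 probes, grouped by gene (y axis), after BUCY (left) and between untreated piglets (right); filled points are the brightest probe of each gene and bars are SE. The SLA-3 probes spread from -1.79 to -0.28 on the right, and the TAP2 pair parts there at -0.98 and -0.01.

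Genes that work beside these in the class I pathway did not move as a block after BUCY. Of the constitutive 20S proteasome subunits, which form the core that the immunoproteasome subunits enter, 5 of 7 tested were called higher and none lower, with a median of 0.44, but with each array centred on its median in place of loess 0 were called and the median was -0.09. PSMA4 rose 1.75-fold (0.81, SE 0.162, adjusted p = 0.00228) and PSMB7 1.43-fold (0.51, SE 0.101, adjusted p = 0.00192). Without BUCY treated piglets 2 and 3, an alternative that was added for the gene lists after the data were seen, 3 of 7 were called higher with a median of 0.41. Over all 24766 genes tested, that alternative called 584 higher and 542 lower after BUCY, beside 4280 calls with piglets 2 and 3 kept. Among the peptide loading genes the chaperones CALR (1.05, SE 0.307, adjusted p = 0.0232) and CANX (1.03, SE 0.287, adjusted p = 0.0173) rose. THOP1 and LNPEP, peptidases that trim or destroy peptides, were at 0.35 and 0.47 and not called. The loading calls, 2 of 4, fell to 0 of 4 without those piglets and to 0 of 4 with median centring.

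Of the immunoproteasome partners, PSMB10 (the alternative subunit that joins PSMB8 and PSMB9), PSME1, PSME2 and PSME3 (activators that cap the core), 0 of 4 were called after BUCY. They lay between -0.41 for PSME1 and 0.45 for PSME2. In the 19S cap, which feeds ubiquitin-tagged proteins to the core, 1 of 3 was called (PSMC1, 0.41, adjusted p = 0.0258), and 0 of 3 with median centring or without BUCY treated piglets 2 and 3. Of 12 genes that control class I transcription, 2 were called lower, among them JAK2, a kinase of the interferon gamma receptor (-0.39, adjusted p = 0.0462). NLRC5, the transactivator of class I genes, was at 0.41 (adjusted p = 0.0996) and IRF1 at -0.61 (adjusted p = 0.0688). With median centring 1 of the 12 was called lower, and without BUCY treated piglets 2 and 3 none was.

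The receptors that read class I molecules were lower after BUCY in 2 of 3 genes tested: CD8A, the coreceptor of cytotoxic T cells, by 1.89-fold (-0.92, SE 0.153, adjusted p = 0.000519), and KLRK1, an activating receptor of NK and T cells, by 2.54-fold (-1.35, SE 0.262, adjusted p = 0.00177). CD1D, a class I-like molecule that pairs with B2M and presents lipids, was lower by 1.44-fold (-0.52, SE 0.138, adjusted p = 0.0132), a call lost without BUCY treated piglets 2 and 3. FCGRT, the B2M-dependent antibody transporter of the gut, was at -0.36 (adjusted p = 0.115). The class II genes, which present peptides to CD4 T cells, were called lower in 8 of 9 (median -1.32), and in 5 of 9 (median -0.93) without BUCY treated piglets 2 and 3. SLA-DRA, for example, differed by -1.62 (adjusted p = 0.000753).

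After doxorubicin, where 0.848% of all genes tested were called, the class I-like and receptor lists each held 1 call among 3 genes. CD1D fell 1.52-fold (-0.61, SE 0.126, adjusted p = 0.0193) and CD8A 2.01-fold (-1.0, SE 0.139, adjusted p = 0.000295). Of the loading, immunoproteasome partner, 20S, 19S and transcription genes, none of 4, 4, 7, 3 and 12 was called, although all 7 of the 20S subunits had negative differences (median -0.16). The difference between the drug effects was called for PSMA4 (0.96, adjusted p = 0.0118), PSMB7 (0.56, adjusted p = 0.0171), PSMB6 (0.47, adjusted p = 0.0348), PSME2 (0.85, adjusted p = 0.0303), PSME3 (1.02, adjusted p = 0.0193) and PSMC1 (0.71, adjusted p = 0.0151), each higher for BUCY. With median centring 0 genes of these 3 lists were called in that difference, and without BUCY treated piglets 2 and 3 the count was 1 of 7 for the 20S subunits (3 with them), 2 of 4 for the immunoproteasome partners and 1 of 3 for the 19S cap. Over all genes tested 732 were called in that difference without piglets 2 and 3, beside 1458 with them.

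Between the untreated piglets the proteasome genes were lower in the BUCY experiment too. All 7 of the 20S subunits tested were called (median -0.91), the largest difference being that of PSMA5 (-1.92, SE 0.176, adjusted p = 1.27e-07), and 7 were called with median centring as well. Of the immunoproteasome partners 3 of 4 were called, among them PSME2 (-1.67, SE 0.160, adjusted p = 2.33e-07) and PSMB10 (-0.42, adjusted p = 0.0343). The loading list had 1 call of 4, THOP1 (-0.59, adjusted p = 0.00372), and 3 of 4 with median centring. All 3 genes tested of the 19S cap were called lower, and 1 was with median centring. The transcription list held 2 calls higher and 2 lower among its 12 genes. With median centring it held 0 higher and 1 lower. NLRC5 (-0.08) and IRF1 (-0.17) were not among the called genes.

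**Figure D4:**
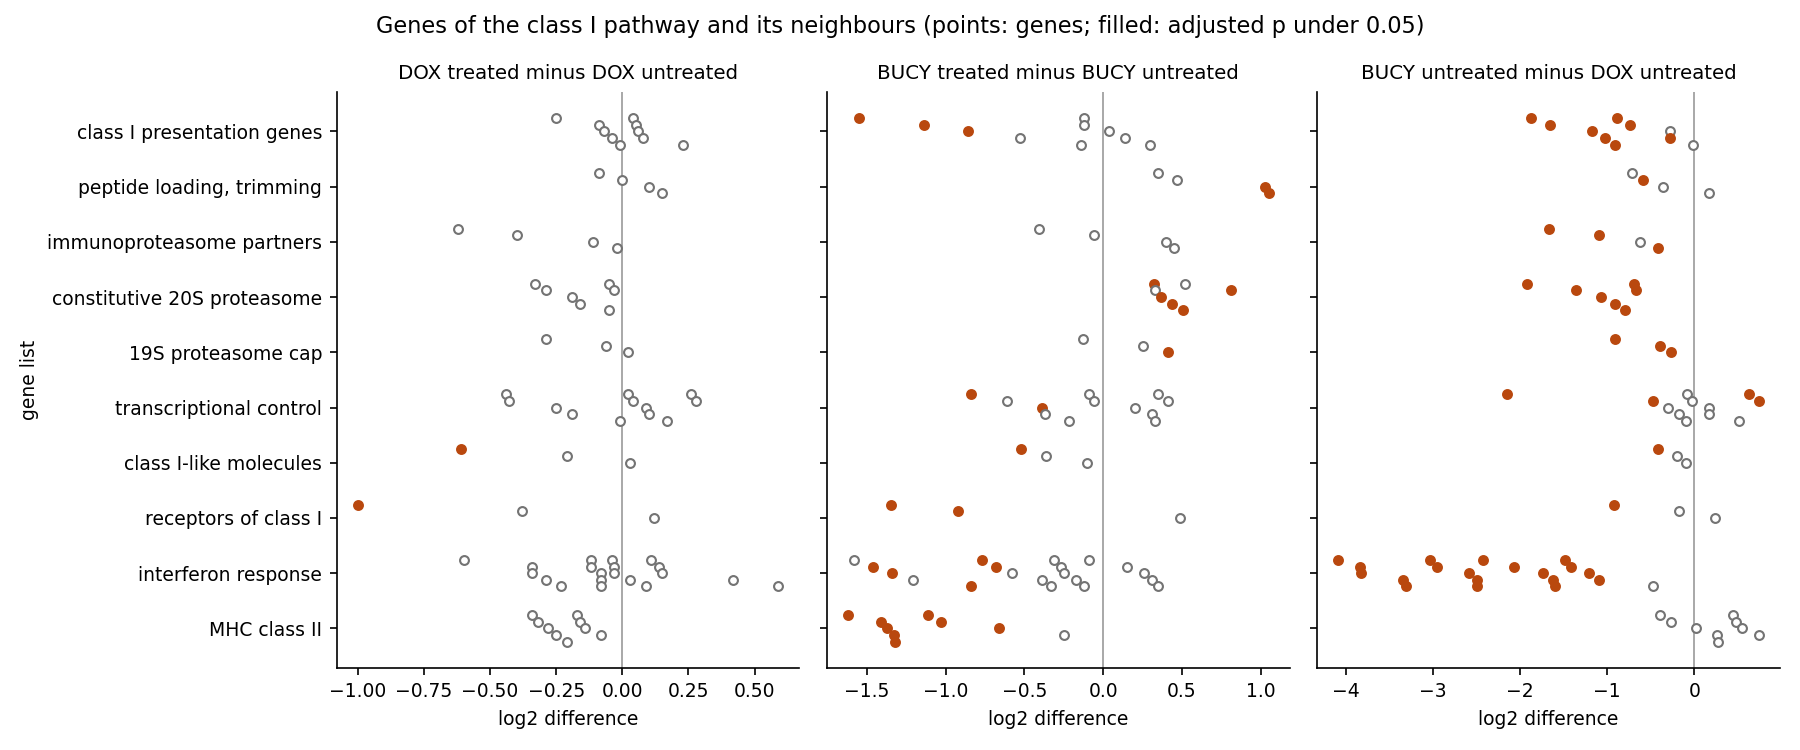
Log2 differences (x axes, each panel on its own scale) of single genes in the class I genes and 9 related lists (y axis; vertical scatter within a list only separates points), in the DOX, BUCY and untreated comparisons; filled points have an adjusted p under 0.05. In the BUCY panel B2M, SLA-5 and SLA-3 are filled on the left and 5 of the 7 constitutive 20S subunits on the right of 0, and in the untreated panel 19 of 20 interferon response genes are filled on the left.

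Marker lists of the interferon response and of cell types were set beside these genes, and some moved otherwise than they did. Between the untreated piglets 19 of the 20 interferon response genes tested were called lower in the BUCY experiment, with a median of -2.46. MX2, an antiviral GTPase, differed by -4.09 (17.1-fold, SE 0.236, adjusted p = 5.72e-10) and ISG15 by -3.84 (14.3-fold, SE 0.274, adjusted p = 5.13e-09). The mean of the list ran from -2.21 to -1.71 over the BUCY untreated and from 0.25 to 0.61 over the DOX untreated piglets, and its part in the class I difference was not tested. After BUCY 5 of these 20 genes were called lower (median -0.32), and none was without BUCY treated piglets 2 and 3. The list mean lay between -2.65 and -2.13 in the BUCY treated piglets, below or within the untreated range. With median centring the BUCY count was 10 of 20.

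Of the macrophage and other myeloid markers 4 of 8 were called lower in the BUCY untreated than in the DOX untreated piglets (median -0.45). The mean of that list ran from -1.02 to -0.40 and from -0.04 to 0.33, without overlap, and its part in the class I difference was not tested either.

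T and NK cell markers were called lower after BUCY in 11 of 15 genes (median -1.06), and in 11 of 15 without treated piglets 2 and 3. Without those piglets 542 of all 24766 genes tested were called lower. The mean of the list ran from -1.38 to -0.83 over treated and from -0.31 to 0.37 over untreated piglets. After doxorubicin, where no class I gene was called, 3 of the 15 were called lower (median -0.71). Between the untreated piglets 2 of the 15 were called lower in the BUCY experiment (median -0.13). CD3E, a chain of the T cell receptor complex, differed by -1.37 (adjusted p = 6.26e-05). Their part in the fall of B2M was not tested, and every one of the 15 markers was well above background on most arrays. Enterocyte markers were called lower in 5 of 10 after BUCY (median -1.01), with list means from -2.32 to 0.81 in the treated and from 0.05 to 0.79 in the untreated piglets. Without piglets 2 and 3 none was called lower, 2 were called higher and the median was -0.04. Between the untreated piglets 4 enterocyte markers were called higher and 1 lower in the BUCY experiment (median 0.79). After doxorubicin none was called (median -0.19). B2M was at -1.51, -1.75 and -1.63 in BUCY treated piglets 1, 4 and 5, with enterocyte means of 0.81, 0.69 and 0.07. In piglets 2 and 3 B2M was at -2.48 and -2.91, with enterocyte means of -1.5 and -2.32. The part of the enterocyte markers in the fall of B2M was not tested.

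**Figure D5:**
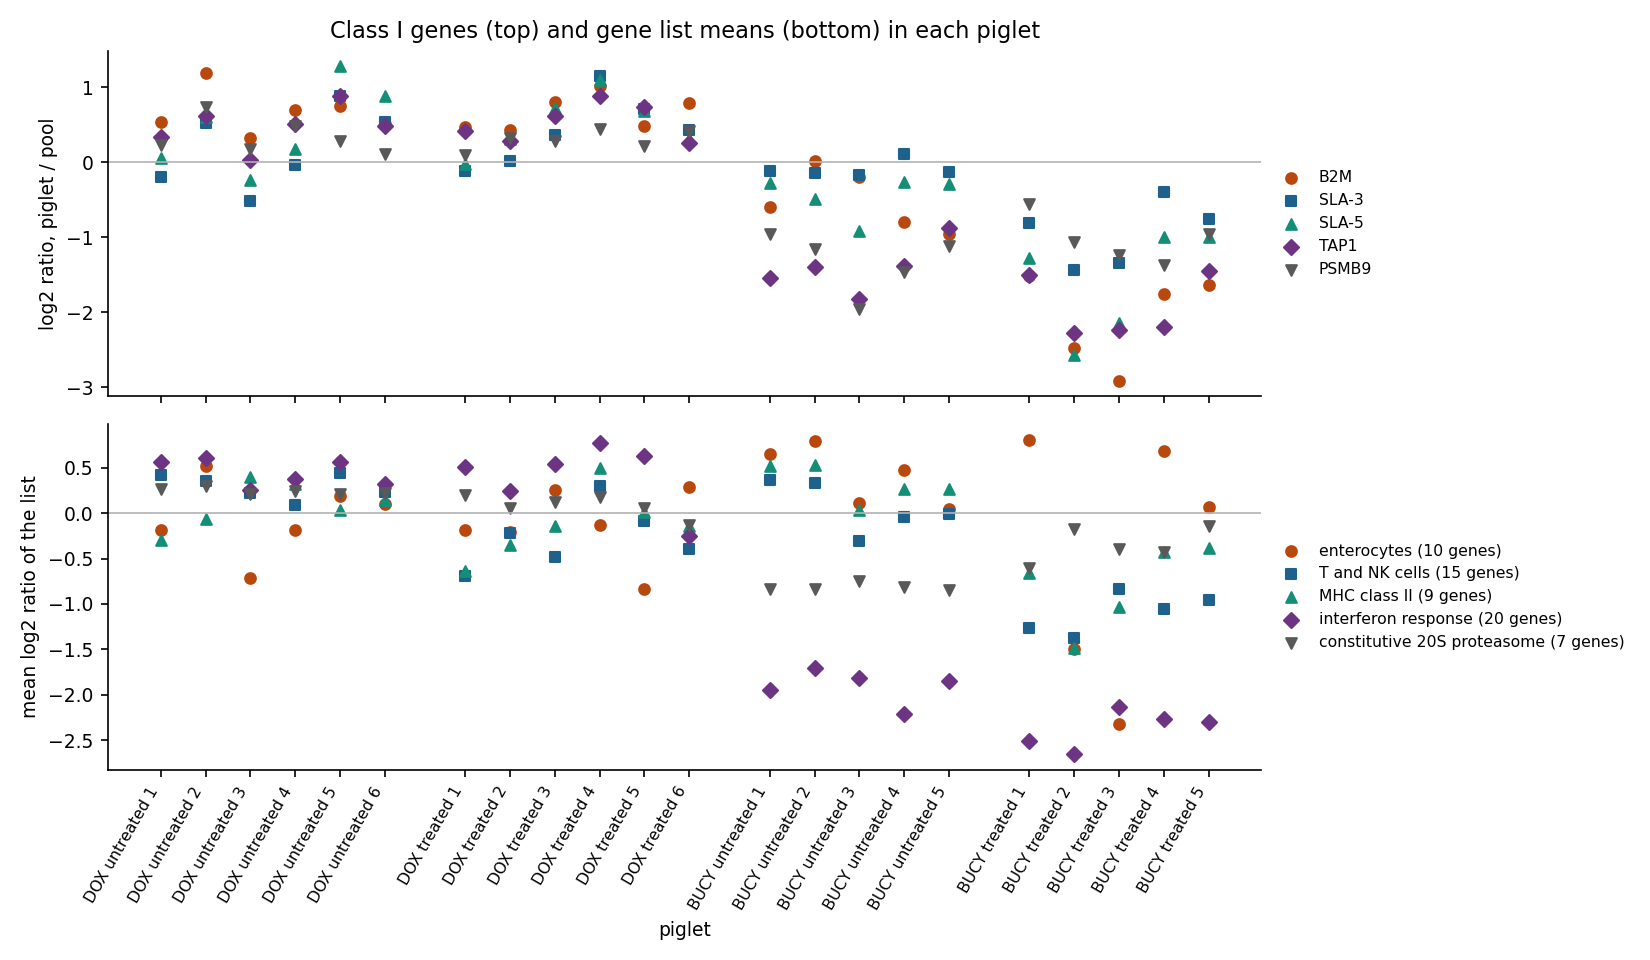
Log2 ratios of 5 class I genes (upper panel, y axis in log2 units) and mean log2 ratios of 5 gene lists (lower panel) in each of the 22 piglets (x axis, by group). BUCY treated piglets 2 and 3 are lowest for B2M, SLA-5 and the enterocyte list, while the interferon response list lies between -2.65 and -1.71 in the 10 piglets of the BUCY experiment and between -0.25 and 0.77 in the DOX experiment.

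The genes nearest to these in their variation among piglets were found by correlation over the 22 arrays after each group's mean was removed, over the 2651 other genes with a symbol. The values share the arrays and the pool, and they are a description. BUCY treated piglets 2 and 3, the lowest for both B2M and the enterocyte list, were kept. Removing group means leaves their distance from the rest of their group, and their part in these correlations was not tested. SLA-3 was closest to SLA-5 (r = 0.90), which held rank 1, followed by LRAT (0.83) and RRNAD1 (0.81). B2M was closest to ITM2B (0.90), ARF4 (0.86), LOC100157285 (0.85), MTTP (0.84) and APOA4 (0.84), the last pair being enterocyte genes of fat transport. The heavy chains SLA-3 (r = 0.53, rank 302) and SLA-5 (r = 0.50, rank 355) came far after these for B2M. TAP1 was closest to PNPLA3 (0.82) and RRNAD1 (0.78), with SLA-5 (0.72) at rank 7 and its chromosomal neighbours PSMB8 (0.65) at rank 27 and PSMB9 (0.54) at rank 123. PSMB8 was closest to ARHGEF2 (0.92), PIGU (0.87) and SPINT1 (0.85), while TAP1 stood at rank 125 for it and PSMB9 at rank 747.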

How the data were processed

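Per the file headers, Agilent Feature Extraction 10.7.3.1 made the deposited scanner files, whose median spot and background intensity in both colours were used; they hold no mean signals. They also give a log10 ratio, and the value table deposited by the authors gives a log2 ratio of Cy5 to Cy3. Agilent Feature Extraction and limma are named in the submitters' processing notes, but how that table was normalised is not given in the sources used here. It served as an alternative: its columns have medians from 0.0015 to 0.018 and the same direction as the scanner ratios. For the 10 genes it correlated with them at 0.97 or above over 22 arrays. The correlation was lowest for B2M, whose 2 values parted by up to 0.84 on an array. Intensities were background-corrected (normexp, offset 50) and loess-normalised within arrays with limma 3.58.1 in R 4.3.3. Spots marked as outliers were left out and no spot was saturated.

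Accessions were matched to RefSeq symbols of Sscrofa11.1, which named 6700 of 43603 probes (15.4%, 3029 symbols). Genes well above background on at least 5 arrays were tested in 1 limma model of 4 group means (lmFit, eBayes, two-sided, Benjamini-Hochberg over all genes tested, threshold 0.05). In simulated data its mean estimates lay near the changes put in. That simulation used independent normal noise of equal spread in all groups, without distant piglets or slides, so it checks the code and not the calls. Groups follow the sample labels, the piglet is the replicate, and replicate numbers are in accession order and pair no piglets. All genes of the rule are named. Other genes come from gene lists of the pathway and of cell types, with called members and those of a known role given. The nearest genes are the first by correlation for B2M, the brightest heavy chain, TAP1 and PSMB8. The genes and lists were chosen with earlier results of these data known. Of the transcription list, 1 gene is not reported here by name. Alternatives changed background correction, normalisation, filter, probe choice, slide or scan day as a block, array weights and the arrays used. Plots were made in Python 3.11.15 by matplotlib 3.10.9.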

Additional observations from a re-analysis of the deposited data

Results flagged for a closer look

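The BUCY effect of B2M differed from its DOX effect by -1.55 in the test of the difference itself (adjusted p = 0.0068 by limma), a call lost with the deposited value table (-0.94, adjusted p = 0.0584) and with median centring (-2.10, adjusted p = 0.126). In the 40 groups of values tested for a single distant piglet (10 genes in 4 groups), 3 were singled out, where chance gives about 1 in 20. BUCY untreated piglet 4 was high for SLA-3, at 0.11 against -0.17 to -0.11 in the other 4, and for SLA-6, at -0.21 against -0.73 to -0.61. BUCY treated piglet 5 was high for SLA-6, at -0.24 against -0.90 to -0.75 in the others.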

How the results depend on the processing

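Results were recomputed under 18 other settings and with each of the 22 arrays left out. No called difference changed sign. B2M stayed called after BUCY in all 40, from -2.26 to -1.09.
The count of genes called after BUCY (3) became 1 without the 6 arrays whose titles carry a suffix, 1 without BUCY treated piglets 2 and 3, and 1 with the second-brightest probe, and 1 to 4 with an array left out. The count for the difference of effects (1) became 0 with median centring (B2M -2.10, adjusted p = 0.126), 0 with the deposited value table, 2 with slide as a random block and 3 with scan day as a block, and 1 to 3 with an array left out. Between untreated piglets, 7 or 8 were called with an array left out, 7 with slide as a fixed block, 6 with median centring, 6 with Cy5 alone, and 9 with the mean over all probes. With that mean SLA-3 (-0.79) and TAP2 (-0.50) passed and SLA-5 (-0.75, adjusted p = 0.0721) did not. The second-brightest probe gave 7 calls in that comparison. By limma SLA-3 (-0.99, adjusted p = 0.0168) and TAP2 (-0.98, adjusted p = 0.000452) then passed and SLA-5 (-0.59, adjusted p = 0.315) did not. SLA-6 and SLA-7 have only 1 probe each. Median centring moved the median of all genes after BUCY by -0.12 and the share of lower calls from 52.3% to 83.2%. Over all genes, 4280 were called after BUCY and between 892 (only the groups compared) and 6290 (without BUCY treated piglet 1) in the alternatives, 210 after DOX (89 with median centring to 1279 with array weights), 1458 for the difference of effects (104 with median centring to 2392 without BUCY treated piglet 1) and 6241 between untreated piglets (3852 with median centring to 7642 with array weights). The cause of these changes was not tested.
Differences not called changed sign as follows. With median centring the DOX effects were SLA-5 -0.11, SLA-6 -0.03, SLA-8 -0.08 and TAP1 -0.09, the BUCY effects TAP2 -0.43 and PSMB9 -0.29, and the differences of effects TAP2 -0.23, PSMB8 -0.18 and PSMB9 -0.08. With scan day as a block the DOX effects were B2M 0.04, SLA-5 -0.01, SLA-6 0.00 and PSMB9 0.00, and the BUCY effect of TAP2 -0.04. Array weights gave DOX effects of SLA-5 -0.08, SLA-6 -0.03 and TAP1 -0.02. Scaling between arrays gave B2M 0.06 and PSMB9 0.00 after DOX. Between untreated piglets TAP2 was 0.01 in the value table, 0.05 in Agilent's log ratios and 0.14 in Cy5 alone, which also gave TAP2 0.02 after DOX and PSMB8 0.72 after BUCY. With the mean over all probes SLA-8 was 0.00 after DOX and TAP2 -0.03 after BUCY, and with slide as a fixed block TAP2 was -0.03 and PSMB8 0.06 after BUCY. Without the suffix arrays SLA-6 was -0.02 after DOX, SLA-8 0.09 and TAP2 -0.06 after BUCY, and SLA-8 0.08 in the difference of effects. Without BUCY treated piglets 2 and 3 PSMB8 was 0.19 after BUCY. The second-brightest probe gave B2M 0.00 and SLA-8 -0.05 after DOX and TAP2 -0.10 after BUCY.
With an array left out, DOX effects ran from -0.08 to 0.10 for B2M, -0.08 to 0.22 for SLA-5, -0.06 to 0.11 for SLA-6, -0.03 to 0.14 for TAP1 and -0.08 to 0.04 for PSMB9. BUCY effects ran from -0.06 to 0.11 for TAP2 and -0.34 to 0.01 for PSMB8, the difference of effects from -0.08 to 0.26 for PSMB8, and the untreated difference from -0.08 to 0.04 for TAP2. TAP1 after BUCY passed in 8 of the 40: without BUCY treated piglet 1 or 5 or BUCY untreated piglet 3, with median centring (-0.93), the value table (-0.62), Agilent's log ratios (-0.76), slide as a random block (-0.54) or scan day as a block (-0.52). No paired analysis was possible because the labels number no piglets across groups. Heavy chains can share probe signal, and the number of piglets limits the rest.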

Other observations

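The markers of macrophages and other myeloid cells, which also carry class I molecules, held calls after both drugs. Of the 8 tested, 6 had negative differences after BUCY (median -0.44) and 5 after doxorubicin (median -0.16). CD163, a scavenger receptor, was higher after BUCY (1.44, SE 0.208, adjusted p = 0.000166) and after doxorubicin (1.31, SE 0.190, adjusted p = 0.000507), and CD14, a lipopolysaccharide receptor, was higher after each as well (0.81, adjusted p = 0.0138, and 1.26, adjusted p = 0.00118). With median centring 0 of the 8 myeloid markers were called higher after BUCY and 1 after doxorubicin. AIF1 was lower after BUCY (-0.54, adjusted p = 0.0438), a call lost without BUCY treated piglets 2 and 3 and with scaling between arrays, and the C1Q chains C1QA, C1QB and C1QC were not called in either comparison. Of the single B cell marker tested, CD79A, the difference was -0.23 after BUCY (adjusted p = 0.364) and -0.74 after doxorubicin (adjusted p = 0.0219). The general epithelial markers had no call of 5 after either drug, with medians of 0.09 after BUCY (-0.44 with median centring) and -0.10 after doxorubicin. In the endothelial list PECAM1 was higher after BUCY (1.27, adjusted p = 0.010), and in the fibroblast and muscle list DES was (1.02, adjusted p = 0.0293), the latter list having 0 calls with median centring and both lists 0 without BUCY treated piglets 2 and 3. CD86, a costimulatory molecule, differed by -2.63 between BUCY untreated and DOX untreated piglets (adjusted p = 1.13e-08).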
